A study of Rattus norvegicus with 48 samples.

Results

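rno-miR-16, rno-miR-15b and rno-miR-497 (miR-16, miR-15b and miR-497 below) are rat microRNAs of 1 family, defined by a shared seed, and were taken by name as 3 of the 143 probe rows measured in rat liver. The diets compared were both liquid (Lieber-DeCarli, 6 to 8 weeks of pair-feeding) and differed in the source of 36% of the calories, ethanol (EtOH) or carbohydrate (CHO), and the animals were male rats of the Sprague-Dawley strain, 8 to 14 weeks old. The later times follow a 70% partial hepatectomy (PHx), a surgery that takes out the medial and left lateral lobes, after which the rest of the liver regenerates. Untreated animals of both diets were sampled at 0, 6, 24 and 72 h, and groups are given below as under CHO or under EtOH. Animals given saline or AM21, a locked nucleic acid oligonucleotide antisense to miR-21 dosed at 7.5 mg/kg before and right after surgery, were sampled at 0 and 24 h. The sources used here do not say whether the 0 h animals had the dose after surgery. Averages over both times may thus mix animals with different numbers of doses. The 16 groups held 3 samples each, 48 in all, and whole liver RNA was counted with NanoString probes, which count captured molecules without amplification. Whether a 0 h sample came from the lobes removed from a rat sampled again later is not given in the sources used here, and each sample is called an animal below.

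A microRNA recognises its target messenger RNAs mainly through the seed, bases 2 to 8 of the mature strand. The miR-15/16 family is known for lowering cyclins and cyclin-dependent kinases of the G1 to S transition, so it is described as a brake on the cell cycle, in hepatocytes among other cells. Partial hepatectomy drives normally resting hepatocytes into that transition within the first day or so, and the liver regains its mass over the following days.

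The sequences below are shown because the shared seed is what makes these rows a family. Of the 143 rows, 124 were matched to a mature sequence of RefSeq (assembly GRCr8), and 5 of them carried the same bases 2 to 8, in capitals here. They were the 3 members and their relatives miR-195 and miR-322, whose rows are used for comparison.
rno-miR-16-5p: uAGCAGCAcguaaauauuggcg
rno-miR-15b-5p: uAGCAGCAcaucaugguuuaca
rno-miR-497-5p: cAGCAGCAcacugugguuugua
rno-miR-195-5p: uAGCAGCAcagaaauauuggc
rno-miR-322-5p: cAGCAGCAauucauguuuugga
miR-103 and miR-107 hold the same 7 bases 1 position earlier, at bases 1 to 7, so their seed is shifted.
rno-miR-103-3p: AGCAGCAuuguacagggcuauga
rno-miR-107-3p: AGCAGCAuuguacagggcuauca

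The members differed mostly outside the seed. Aligned without gaps from the 5′ end, miR-16 and miR-497 were identical at 11 of 22 positions, miR-16 and miR-15b at 14 of 22, and miR-15b and miR-497 at 16 of 22. miR-16 was closest to miR-195, with 19 of 21 positions identical, so a probe for one of these could also capture the other, and the size of any such cross-capture was not tested. In GRCr8 the mature miR-15b lies on chromosome 2 at chr2:155555197-155555218 and miR-16 at chr2:155555343-155555364, both on the plus strand. Their hairpins are separated by 51 bases and lie inside Smc4, which encodes a condensin subunit used in mitotic chromosome packing. The mature miR-497 lies at chr10:55450172-55450193 on the plus strand, in a hairpin 255 bases from that of miR-195, and no annotated gene overlaps either. The rows carry no arm name for the 3 members, and they were read as the 5′ arm, which holds the shared seed. miR-15a, the usual partner of a further miR-16 copy, was not analysed here.

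The 3 probes gave very different counts. miR-16 ranked 4 of 143 by mean level, with 813 to 11842 counts per animal, miR-15b ranked 18 with 163 to 3179 counts, and miR-497 ranked 120 with 17 to 66 counts. Probe capture differs between miRNAs, so these ranks are not molar ratios. At the median of 46 counts, counting alone gives miR-497 an SD of 0.21 on the log2 scale, beside a pooled within-group SD of 0.28, while for miR-16 the same figures were 0.023 and 0.23. Counting therefore limits miR-497 and hardly touches miR-16. The counts of miR-497 were also low for the assay. In the AM21-treated animals miR-21, which AM21 blocks, still gave 15 to 32 counts, a range that overlaps that of miR-497. How far background counts flatten changes of miR-497 was not tested. The 5 probes with the seed took 2.34% to 5.89% of all counts of an animal, and miR-16 alone made up 59.6% to 87.9% of that sum.

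Some values touch every result below. Total counts per animal ranged from 58168 to 267582. Untreated animals had 58168 to 205241 counts at 0 h, 87009 to 196972 counts at 6 h and 163533 to 267582 counts at 72 h. The labels place the animals in 4 sets, of which sets 1 to 3 hold all groups of 0 and 24 h and set 4 holds all animals of 6 and 72 h, so the change from 0 to 72 h cannot be told apart from a difference between sets, whereas 72 h against 6 h lies within set 4. The library labels were checked by miR-21, the target of AM21, at 6.59 to 7.76 log2 CPM (counts scaled to a common library total) in the 12 AM21-treated animals and 12.97 to 15.76 in 34 of the 36 others. The remaining animals, both EtOH-fed, saline-treated and taken at 0 h, stood between at 9.65 and 11.12, and results that use them were also computed without them. Hepatocyte markers were present in every untreated animal, with their sums given beside the 72 h results.

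miR-16 rose after PHx in both diets and stood highest at 72 h. At 0 h the untreated level was 13.70, 13.64 and 14.34 log2 CPM in the CHO-fed animals and 14.41, 14.36 and 14.39 in the EtOH-fed animals. At 6 h it was 14.01, 13.87 and 14.46 under CHO and 14.72, 14.22 and 14.04 under EtOH. At 24 h it was 14.53, 14.08 and 14.95 under CHO and 15.09, 14.62 and 14.78 under EtOH. Levels at 0, 6 and 24 h overlapped under CHO, while under EtOH the 24 h values exceeded every 0 h value (18.2% of rows did not overlap in that direction). At 72 h it was 15.21, 15.18 and 15.36 under CHO and 15.74, 15.67 and 15.51 under EtOH. All 6 animals at 72 h were above all 42 other animals of the series, whose highest value was 15.09, and miR-16 was the only row of 143 (0.699%) for which this held.

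miR-16 increased 2.56-fold (95% interval 1.85 to 3.55) from 0 to 72 h under CHO, a log2 change of 1.36 ± 0.23 (SE, 3 against 3 animals, limma adjusted p = 0.000627). This was the largest increase of the 143 rows in that comparison, in which 8.39% of rows were called higher, a call being an adjusted p below 0.05. In EtOH-fed animals it increased 2.39-fold (1.72 to 3.31), by 1.26 ± 0.23 (limma adjusted p = 0.000823), in second place, where 10.5% of rows were called higher. Within set 4, miR-16 rose from 6 to 72 h by 1.14 ± 0.23 under CHO (limma adjusted p = 0.00171, 14.7% of rows called higher) and by 1.31 ± 0.23 under EtOH (limma adjusted p = 0.000213, 21.7% called higher). In each of these 4 comparisons the groups did not overlap, which in this direction held for 16.8%, 22.4%, 22.4% and 25.9% of rows in the order given.

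From 0 to 24 h the CHO-fed change of 0.63 ± 0.23 was not called without the set number in the model (limma adjusted p = 0.0814, 1.4% of rows called higher) and was called with it as a block (limma adjusted p = 0.0474). Without replicate 2 of the CHO-fed 24 h animals it was 0.85 (limma adjusted p = 0.0448), and without replicate 3 of the 0 h animals it was 0.85 (limma adjusted p = 0.0355). With saline-treated animals averaged in, 6 against 6, the CHO-fed increase was 0.62 ± 0.14 (limma adjusted p = 0.00211, 12.6% of rows called higher), from a median of 13.84 to a median of 14.54 log2 CPM. Scaled by total counts alone it was 0.33 (limma adjusted p = 0.0938). The EtOH-fed change over the same interval was 0.45 ± 0.23 in untreated animals alone (limma adjusted p = 0.265), 0.14 ± 0.14 with saline-treated animals averaged in (95% interval -0.14 to 0.42, limma adjusted p = 0.519) and 0.039 without both animals with low miR-21 (limma adjusted p = 0.869), none of them called. The difference between the diets in this change, tested after both were seen, was -0.48 ± 0.19 (limma adjusted p = 0.474), so a difference between them was not shown. From 0 to 6 h miR-16 changed by 0.22 ± 0.23 under CHO and by -0.06 ± 0.23 under EtOH, neither of them called.

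**Figure D1:**
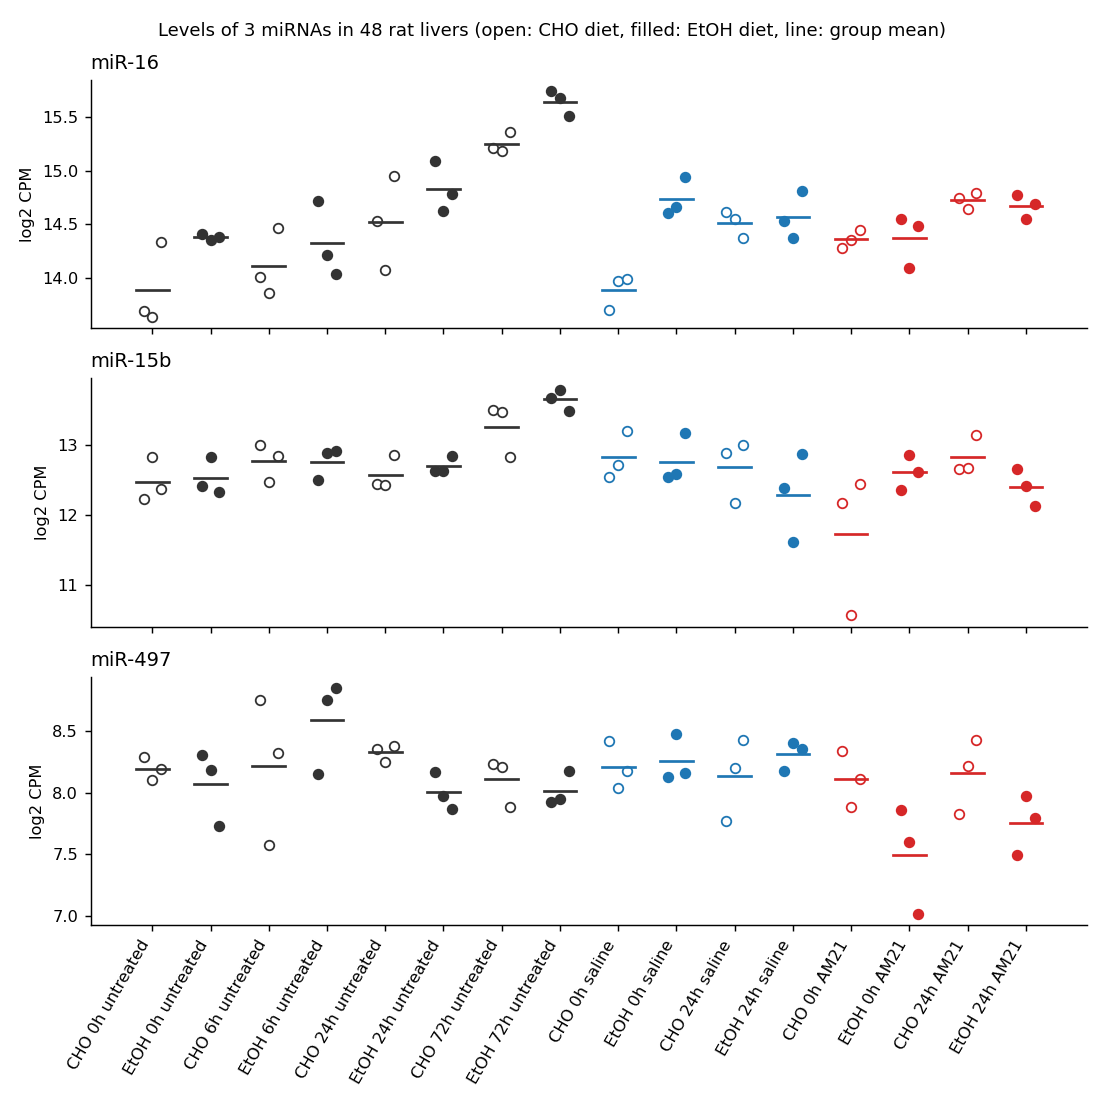
Level (log2 CPM) of miR-16, miR-15b and miR-497 in each of the 48 animals, by group, with open points for CHO-fed and filled points for EtOH-fed animals, colour for treatment and a line at the group mean. All 6 miR-16 points at 72 h lie at or above 15.18, while miR-497 spans 7.02 to 8.85 with no step at 72 h.

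miR-16 also followed the total count of the library. With the group means removed, its level correlated with log10 total count at r = 0.74 over the 48 animals, the highest of the 143 rows, whose median was -0.0020. miR-15b gave r = 0.075 and miR-497 r = -0.12, and of the relatives miR-322 gave 0.65 and miR-195 0.40. Adding log10 total count to the model left an increase of miR-16 from 0 to 72 h of 0.82 under CHO (limma adjusted p = 0.0116) and 0.92 under EtOH (limma adjusted p = 0.00105), smaller and still called. Within set 4 the CHO-fed increase from 6 to 72 h was then 0.67 (limma adjusted p = 0.0437).

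**Figure D2:**
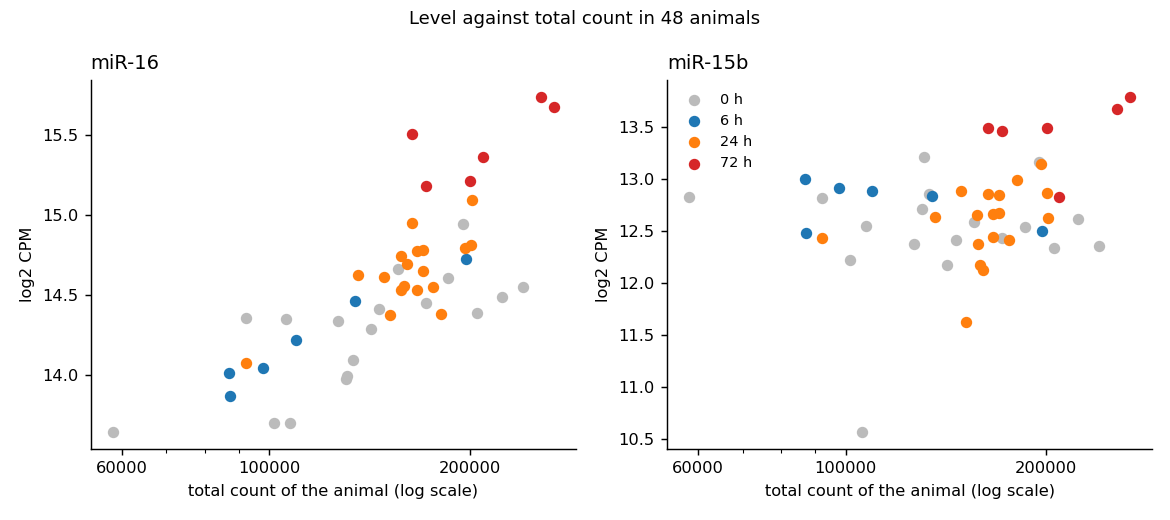
Level (log2 CPM) of miR-16 and miR-15b against the total count of each of the 48 animals (log axis), coloured by hours after PHx. miR-16 climbs with total count across the whole range. Its 6 points of 72 h lie above the other animals of like total count. For miR-15b, 5 points of 72 h lie above the 42 animals of other times. The plotted levels keep the group means. With these removed, miR-15b gave r = 0.075 with log10 total count, beside 0.74 for miR-16.

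miR-15b, transcribed next to miR-16 from the same locus, rose by 72 h as well, with less certainty under CHO. Its untreated level at 0 h was 12.22, 12.83 and 12.37 log2 CPM under CHO and 12.41, 12.82 and 12.34 under EtOH. At 6 h it was 13.00, 12.48 and 12.84 under CHO and 12.50, 12.88 and 12.91 under EtOH. At 24 h it was 12.44, 12.43 and 12.86 under CHO and 12.62, 12.63 and 12.85 under EtOH. Up to 24 h the times overlapped within each diet. At 72 h it was 13.49, 13.47 and 12.82 under CHO and 13.67, 13.79 and 13.49 under EtOH. At 72 h 1 CHO-fed animal, at 12.82, fell within the range of the 0 h animals, and the other 5 animals stood above the other 42, whose highest value was 13.21.

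In EtOH-fed animals miR-15b increased 2.19-fold (95% interval 1.61 to 2.97) from 0 to 72 h, by 1.13 ± 0.21 on the log2 scale (limma adjusted p = 0.000823), and by 0.89 ± 0.21 from 6 to 72 h (limma adjusted p = 0.00295). In both the groups did not overlap, which in this direction held for 22.4% and 25.9% of rows. Of all rows, 10.5% and 21.7% were called higher. In CHO-fed animals the increase from 0 to 72 h was 0.79 ± 0.21, or 1.72-fold (1.27 to 2.34, limma adjusted p = 0.0132). It was not called without replicate 1 of the 0 h animals (0.66, limma adjusted p = 0.0735), without replicate 4_7 of the 72 h animals (0.67, limma adjusted p = 0.0701), when scaled by total counts alone (0.48, limma adjusted p = 0.109), with the set as a random block (0.79, limma adjusted p = 0.0519), or with only the groups compared in the fit (0.79, limma adjusted p = 0.0812). From 6 to 72 h the CHO-fed change of 0.49 ± 0.21 was not called (limma adjusted p = 0.0883), and without replicate 4_9 of the 72 h animals it was 0.71 (limma adjusted p = 0.0303). Changes at 6 and 24 h lay between 0.10 and 0.30 and were not called. Over all 3 later times together, limma's F test called miR-16 and miR-15b under CHO (adjusted p = 0.00117 and 0.0278, 32.9% of rows called) and under EtOH (adjusted p = 0.000642 and 0.0016, 39.9% of rows called). The call of miR-15b under CHO was lost with scaling by total counts (limma adjusted p = 0.119) or to the 100 highest probes (0.0608), with only the groups compared (0.0838), with the random block (0.0614), and without replicate 1 of the 0 h animals or replicate 4_7 or 4_8 of the 72 h animals (0.0574, 0.12 and 0.103).

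miR-497 was not called at 72 h in either diet. Its untreated level was 8.29, 8.11 and 8.19 log2 CPM at 0 h and 8.24, 8.21 and 7.88 at 72 h under CHO. In EtOH-fed animals it was 8.30, 8.18 and 7.73 at 0 h and 7.92, 7.95 and 8.17 at 72 h. Within each diet the ranges overlapped. The change from 0 to 72 h was -0.09 ± 0.23 under CHO (95% interval -0.57 to 0.39, limma adjusted p = 0.818) and -0.06 ± 0.23 under EtOH (-0.54 to 0.42, limma adjusted p = 0.924). Both upper limits lie below the lower limits for miR-16 in the same comparisons, 0.89 and 0.78.

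At 6 h miR-497 was most spread, at 8.76, 7.58 and 8.32 under CHO, from 39, 18 and 41 counts, and at 8.15, 8.76 and 8.85 under EtOH. The EtOH-fed change from 0 to 6 h was 0.51 ± 0.23 (limma adjusted p = 0.145), and from 6 to 72 h it was -0.57 ± 0.23 (limma adjusted p = 0.0575). The latter was called under other scalings, with -0.63 under median-of-ratios size factors (limma adjusted p = 0.0284) and -0.73 when scaled to the 100 highest probes (limma adjusted p = 0.0195), and without replicate 4_4 of the 6 h animals (-0.79, limma adjusted p = 0.0186). At 24 h levels were 8.36, 8.25 and 8.38 under CHO and 8.17, 7.97 and 7.87 under EtOH, with no called change from 0 h.

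**Figure D3:**
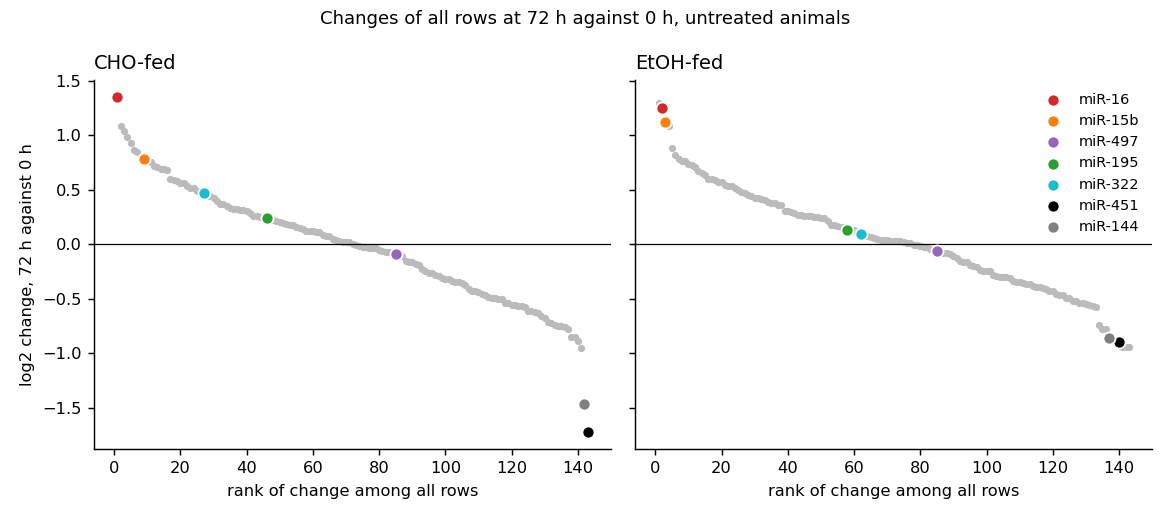
Log2 change from 0 to 72 h of all 143 rows in untreated CHO-fed and EtOH-fed animals, ranked from highest to lowest, with the 5 rows that share the seed and the red blood cell miRNAs miR-451 and miR-144 coloured. miR-16 ranks 1 and 2, miR-15b 9 and 3, and miR-497 85 in both.

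Whether the members changed by different amounts was tested on the difference between them within each animal, with both diets together and the time labels permuted within diet. The difference miR-16 minus miR-497 grew from 6.00 ± 0.46 (SD, n = 6) at 0 h to 7.38 ± 0.36 at 72 h, an increase of 1.38 (exact two-sided permutation p = 0.005, adjusted p = 0.015 over 12 tests). miR-15b minus miR-497 grew from 4.36 ± 0.33 to 5.39 ± 0.34, an increase of 1.03 (exact permutation p = 0.005, adjusted p = 0.015). From 6 to 72 h the same differences grew by 1.57 and 1.03 (exact permutation p = 0.005 and adjusted p = 0.015 for each), and 0.005 is the smallest p that the 400 relabellings allow. In these 4 comparisons the 6 animals at 72 h all lay above the 6 at the earlier time. miR-16 minus miR-15b, which share a locus, grew by 0.35 from 0 to 72 h (exact permutation p = 0.16, adjusted p = 0.24) and by 0.54 from 6 to 72 h (exact permutation p = 0.06, adjusted p = 0.12), so that a difference between them was not shown. At 24 h against 0 h miR-16 minus miR-497 grew by 0.51 (exact permutation p = 0.03, adjusted p = 0.072), and none of the 3 differences at 6 h passed. With 3 against 3 animals of 1 diet no such test can go below 0.10.

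**Figure D4:**
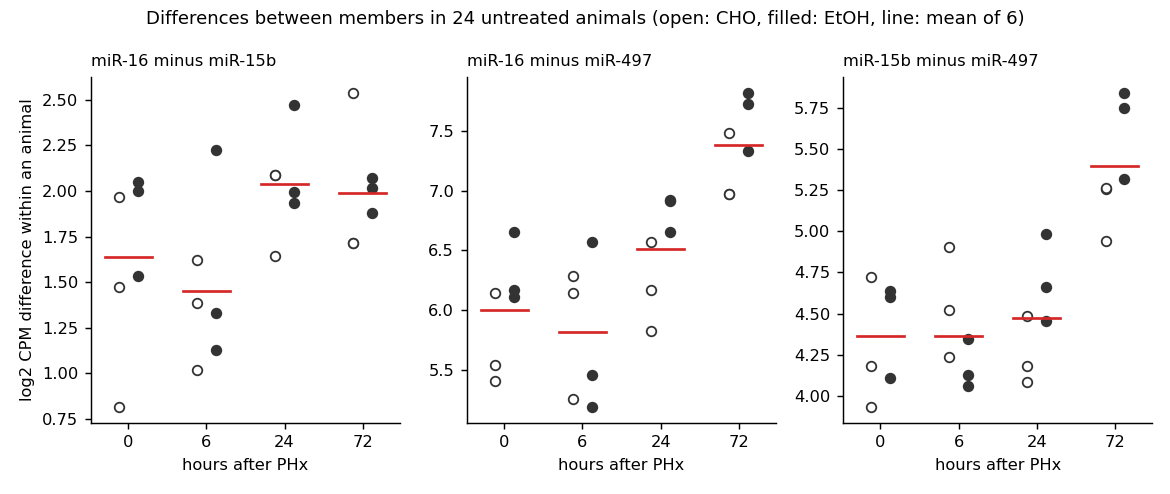
Difference in log2 CPM between 2 members within each of the 24 untreated animals, by hours after PHx, with open points for CHO-fed and filled points for EtOH-fed animals and a line at the mean of 6. The differences to miR-497 step up at 72 h, to means of 7.38 and 5.39, and miR-16 minus miR-15b shows overlapping ranges at all times.

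The relatives with the same seed were not called from 0 to 72 h in either diet. miR-195, encoded beside miR-497, changed from 0 to 72 h by 0.24 ± 0.27 under CHO and 0.13 ± 0.27 under EtOH and was called in none of these time comparisons. miR-322, encoded on the X chromosome, rose from 6 to 72 h by 0.79 ± 0.22 under CHO (limma adjusted p = 0.0126) and by 0.58 ± 0.22 under EtOH (limma adjusted p = 0.0439), with no overlap in either. In that direction 22.4% and 25.9% of all rows did not overlap, and 14.7% and 21.7% were called higher. From 0 to 72 h miR-322 changed by 0.47 ± 0.22 (limma adjusted p = 0.125) and 0.10 ± 0.22 (limma adjusted p = 0.823). Of the 5 rows with the seed, 2 were called higher from 0 to 72 h in each diet, the members miR-16 and miR-15b, and none lower. Over all rows 8.39% and 10.5% were called higher. The median change of the 5 rows was 0.47 under CHO and 0.13 under EtOH, beside medians of 0.00 and 0.03 over all rows. miR-103 and miR-107, with the shifted seed, were called in none of the 72 h comparisons.

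Other miRNAs known for acting on the G1 to S transition were taken as a pair of lists. Of 9 rows described as promoting it (the miR-17 and miR-106b clusters, miR-221 and miR-21), 2 were called higher from 0 to 72 h under CHO and 3 under EtOH and none lower, with medians of 0.56 and 0.60, where 8.39% and 10.5% of all rows were called higher. miR-17-5p, of the miR-17 cluster, rose in both diets, by 0.68 ± 0.18 (limma adjusted p = 0.0132) and 0.77 ± 0.18 (limma adjusted p = 0.00633). miR-21 rose by 0.98 ± 0.29 under CHO (limma adjusted p = 0.0231), and under EtOH miR-93 rose by 0.82 ± 0.20 (limma adjusted p = 0.00718) and miR-106b by 0.60 ± 0.21 (limma adjusted p = 0.0456). Of 15 rows described as restraining it (the miR-34, miR-26, let-7 and miR-29 families), 1 was called higher under CHO, and 1 was called higher and 1 lower under EtOH, where over all rows 9.79% and 7.69% were called lower in the same order of diets, with medians of 0.02 and -0.08. miR-34a, a transcriptional target of p53, rose by 0.79 ± 0.22 (limma adjusted p = 0.0163) and by 1.30 ± 0.22 (limma adjusted p = 0.000823), and miR-29a fell by 0.74 ± 0.15 under EtOH (limma adjusted p = 0.00185). Within set 4, from 6 to 72 h, 5 of the 9 promoting rows were called higher in each diet and none lower. Over all rows 14.7% and 21.7% were called higher. miR-19a rose by 2.38 ± 0.49 and 2.64 ± 0.49, but it was not called from 0 to 72 h in either diet. From 0 to 6 h, 5 of the 9 promoting rows fell by mean under CHO, none called. Under EtOH 6 fell and 1 was called lower. From 6 to 72 h, 2 of the 15 restraining rows were called higher and 2 lower under CHO, and 3 and 3 under EtOH. Over all 143 rows, 23 and 22 were called lower. miR-34c fell in both diets, at -1.08 ± 0.25 and -0.68 ± 0.25, and miR-34a rose under EtOH by 1.11 ± 0.22.

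miR-16 and miR-15b are also abundant in blood cells, so the markers of those cells are given beside their rise, whose part in it was not tested. Fewer cells of a type and less RNA per cell cannot be told apart in whole liver. The red blood cell miRNAs miR-451 and miR-144 summed to 1306 to 2440 CPM at 0 h and 550 to 661 CPM at 72 h in untreated CHO-fed animals, and to 1915 to 3791 and 707 to 1898 CPM under EtOH. miR-451 fell by 1.72 (log2) under CHO (SE 0.30, limma adjusted p = 0.000627) and by 0.90 under EtOH (SE 0.30, limma adjusted p = 0.0453). miR-144 changed by -1.47 ± 0.38 (limma adjusted p = 0.0124) and -0.86 ± 0.38 (limma adjusted p = 0.122). Within set 4, from 6 to 72 h, both were called lower under CHO. There miR-451 changed by -1.76 ± 0.30 (limma adjusted p = 0.000461) and miR-144 by -1.44 ± 0.38 (limma adjusted p = 0.00786). Under EtOH neither was called from 6 to 72 h. Their group means there went from 9.08 to 8.83 log2 CPM for miR-451 and from 9.44 to 9.74 for miR-144. With group means removed, the correlation of miR-16 with miR-451 over 48 animals was 0.087 and with miR-144 0.14, and for miR-15b it was -0.16 and -0.30. The 4 leukocyte miRNAs measured (miR-223, miR-150, miR-142-3p and miR-342-3p) summed to 2849 to 3562 CPM at 0 h and 3204 to 3967 CPM at 72 h under CHO, and to 3227 to 4183 and 3131 to 3411 CPM under EtOH. Of these 4, miR-342-3p was called higher under CHO, at 0.77 ± 0.23, and miR-150 lower under EtOH, at -0.78 ± 0.23 (limma adjusted p = 0.0223 and 0.0174). From 6 to 72 h miR-142-3p was called higher in both diets, by 0.87 ± 0.26 under CHO (limma adjusted p = 0.0156) and 0.82 ± 0.26 under EtOH (limma adjusted p = 0.0148), and miR-150 lower, at -0.98 ± 0.23 (limma adjusted p = 0.00391) and -1.01 ± 0.23 (limma adjusted p = 0.00203). Over the same interval miR-342-3p was called only under EtOH, and lower, at -0.65 ± 0.23 (limma adjusted p = 0.0254).

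Markers of the cells of the liver itself also moved, and their part in the rise was not tested. The hepatocyte markers miR-122, miR-192 and miR-194 summed to 366272 to 562747 CPM at 0 h and 576072 to 689012 CPM at 72 h under CHO, without overlap, and to 561928 to 672603 and 611593 to 785173 CPM under EtOH. None of the 3 was called from 0 to 72 h, and from 6 to 72 h miR-192 was called higher by 0.89 ± 0.24 under CHO (limma adjusted p = 0.00786) and 0.85 ± 0.24 under EtOH (limma adjusted p = 0.00769). The 4 mesenchymal and stellate cell markers measured (miR-143, miR-145, miR-199a-5p and miR-199a-3p) summed to 21319 to 22276 CPM at 0 h and 13675 to 21613 CPM at 72 h under CHO, and to 17403 to 20849 and 12836 to 15052 CPM under EtOH. Of these, miR-145 was the only one called, lower by 72 h at -0.57 ± 0.20 under CHO (limma adjusted p = 0.0461) and -0.89 ± 0.20 under EtOH (limma adjusted p = 0.00275), and at -0.99 (limma adjusted p = 0.00171) and -1.53 (limma adjusted p = 1.09e-05) against 6 h. The list did not move as 1. From 0 to 72 h, 1 of the 4 rose and 3 fell by mean under CHO, and 2 rose and 2 fell under EtOH. From 6 to 72 h, 3 rose and 1 fell under CHO, and 2 rose and 2 fell under EtOH. miR-199a-5p rose from 0 to 72 h by 0.33 ± 0.21 under CHO and 0.53 ± 0.21 under EtOH, neither of them called. The endothelial miR-126 went from 16191 to 21515 CPM at 6 h to 25492 to 30891 CPM at 72 h under CHO, not called, and from 13134 to 19940 to 31380 to 36836 CPM under EtOH, by 1.05 ± 0.29 (limma adjusted p = 0.00754). At 0 h miR-126 was 18149 to 45451 CPM under CHO and 20957 to 46454 CPM under EtOH, ranges that hold the 72 h values. Its changes from 0 to 72 h were -0.16 and 0.04, neither of them called. Those from 0 to 6 h were -0.78 under CHO, not called, and -1.01 under EtOH, called lower. No marker of these 5 lists was at 0 counts.

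Between the diets no member was called at any single time in untreated animals. miR-16 was higher by mean under EtOH at all 4 times, by 0.49 ± 0.23 at 0 h (limma adjusted p = 0.235), 0.21 ± 0.23 at 6 h, 0.31 ± 0.23 at 24 h and 0.39 ± 0.23 at 72 h (limma adjusted p = 0.64), and the groups did not overlap at 0 and 72 h, which in this direction held for 6.99% and 12.6% of rows. The interaction of diet with time was not called for any member in untreated animals (limma adjusted p = 1 for miR-16). Averaged over untreated, saline-treated and AM21-treated animals at 0 h, 9 against 9, miR-16 was 14.10 to 14.94 with a median of 14.49 log2 CPM under EtOH and 13.64 to 14.45 with a median of 13.99 under CHO. The treatments did not share this difference evenly. Group means at 0 h under EtOH and CHO were 14.39 and 13.89 untreated, 14.74 and 13.89 with saline, and 14.38 and 14.36 with AM21. The averaged difference of 0.45 ± 0.11 was called (limma adjusted p = 0.00705, 9.79% of rows called higher), and at 24 h it was 0.10 ± 0.11 (limma adjusted p = 0.69). It was 0.52 (limma adjusted p = 0.0215) without both saline-treated animals with low miR-21. Total counts at 0 h ran from 92245 to 240355 under EtOH and from 58168 to 171780 under CHO, and with that total in the model the difference was 0.22 (limma adjusted p = 0.261). Scaled by total counts alone it was also 0.22 (limma adjusted p = 0.147). The change of that difference from 0 to 24 h was -0.35 ± 0.16 (limma adjusted p = 0.347).

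AM21 was given to ask what follows when miR-21 is blocked, and of the members only miR-497 was called, on the average over diets and times. miR-16 was 14.29, 14.35 and 14.45 log2 CPM in AM21-treated CHO-fed animals at 0 h, above the saline-treated 13.70, 13.98 and 13.99 (3.5% of rows did not overlap in that direction). In EtOH-fed animals at 0 h it was 14.55, 14.10 and 14.49 with AM21 and 14.61, 14.66 and 14.94 with saline, so the order was the opposite (8.39% of rows). At 24 h it was 14.75, 14.65 and 14.79 with AM21 and 14.61, 14.55 and 14.38 with saline under CHO. Under EtOH at 24 h it was 14.77, 14.55 and 14.69 with AM21 and 14.53, 14.37 and 14.81 with saline. The 24 h groups overlapped under EtOH, and under CHO the AM21-treated animals lay above the saline-treated ones, as for 8.39% of rows. Averaged over diets and times, 12 AM21-treated against 24 other animals, miR-16 differed by 0.12 ± 0.08 (95% interval -0.05 to 0.29, limma adjusted p = 0.402). Saline against untreated differed by 0.02 ± 0.10 (limma adjusted p = 0.971).

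miR-15b was 12.17, 10.57 and 12.44 log2 CPM in AM21-treated CHO-fed animals at 0 h and 12.36, 12.85 and 12.62 under EtOH. The value of 10.57, from 163 counts, was the lowest of the series, and the same animal had the highest miR-144 of the series at 12.18. AM21 against the other animals at 0 h gave -0.48 ± 0.21 (limma adjusted p = 0.307) and without that animal -0.19 (limma adjusted p = 0.747). Over both times the difference was -0.22 ± 0.15 (limma adjusted p = 0.375). At 24 h miR-15b was 12.66, 12.67 and 13.14 under CHO and 12.66, 12.42 and 12.12 under EtOH with AM21. Saline-treated animals at 24 h had 12.88, 12.17 and 12.99 under CHO and 12.38, 11.62 and 12.87 under EtOH, which overlapped those with AM21. At 0 h they had 12.55, 12.71 and 13.21 under CHO and 12.54, 12.59 and 13.17 under EtOH, so that every value with saline under CHO was above every value with AM21, as for 6.29% of rows.

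miR-497 was lower with AM21 on average over diets and times, by -0.31 ± 0.09 (limma adjusted p = 0.0302), which is 0.81-fold (95% interval 0.71 to 0.91), where 4.2% of rows were called lower. The 12 AM21-treated animals ran from 7.02 to 8.43 with a median of 7.88 log2 CPM, and the 24 others from 7.73 to 8.48 with a median of 8.19, so the ranges overlapped. With AM21 under EtOH, miR-497 was 7.86, 7.60 and 7.02 log2 CPM at 0 h, and 24 h gave 7.49, 7.97 and 7.79. With AM21 under CHO, 0 h gave 8.34, 7.89 and 8.11, and 24 h gave 7.83, 8.22 and 8.43. The values with AM21 below 7.73, the lowest of the 24 others, were thus all from EtOH-fed animals. Saline-treated animals at 0 h had 8.42, 8.04 and 8.18 under CHO and 8.13, 8.48 and 8.16 under EtOH. At 24 h they had 7.77, 8.20 and 8.43 under CHO and 8.17, 8.41 and 8.36 under EtOH. Taken alone, neither 0 h (-0.38 ± 0.13, limma adjusted p = 0.104) nor 24 h (-0.24 ± 0.13, limma adjusted p = 0.608) was called. The call over both times did not hold without both saline-treated animals with low miR-21 (-0.30, limma adjusted p = 0.0793), when scaled to the 100 highest probes (-0.24, limma adjusted p = 0.106), with precision weights (-0.30, limma adjusted p = 0.0526), or without any 1 of 5 animals, at limma adjusted p = 0.0517 to 0.113: replicate 1 of AM21-treated animals of either diet at 24 h, replicate 2 of CHO-fed or replicate 3 of EtOH-fed AM21-treated animals at 0 h, and replicate 2 of saline-treated EtOH-fed animals at 0 h. Its cluster partner miR-195 differed by -0.06 ± 0.11 (limma adjusted p = 0.798). The other 5 rows called lower included miR-21 itself, at -7.15 ± 0.24, and the stellate cell markers miR-199a-5p and miR-199a-3p, at -0.51 ± 0.08 and -0.31 ± 0.08. Of the 4 mesenchymal and stellate cell markers only these 2 were called, and by mean 3 were lower and 1 was higher. miR-199a-5p was also called higher in saline-treated than in untreated animals, by 0.34 ± 0.09 (limma adjusted p = 0.0407).

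**Figure D5:**
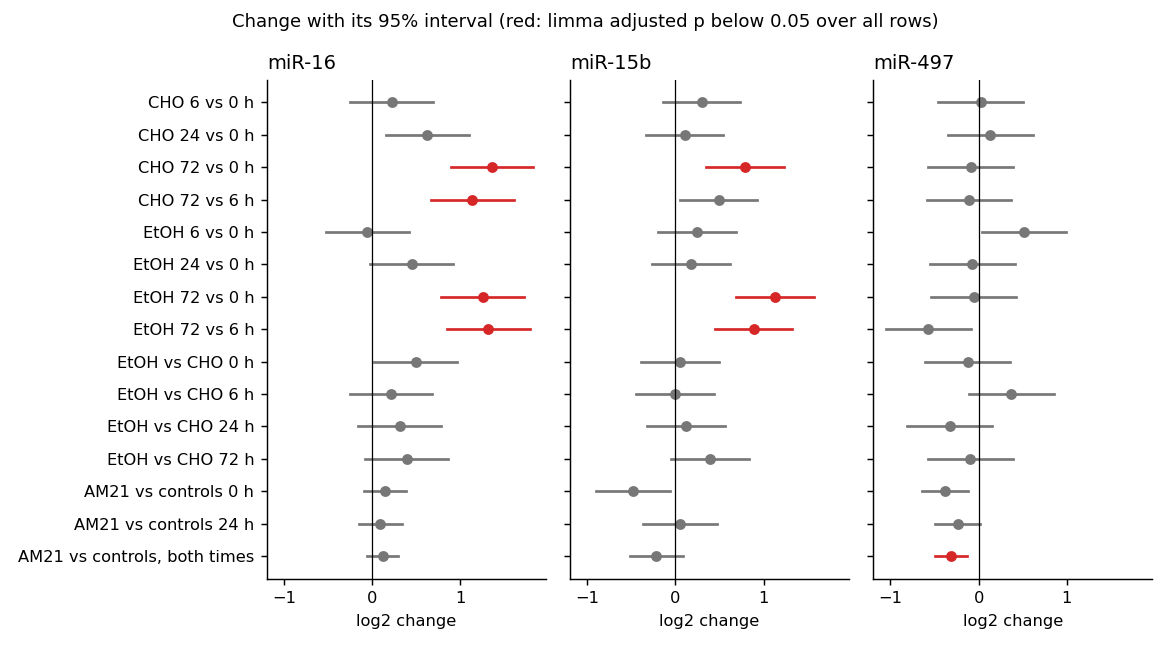
Log2 change of each member with its 95% interval in 15 comparisons (rows), for times after PHx within each diet, EtOH-fed against CHO-fed animals, and AM21 against untreated and saline-treated animals. Red marks limma adjusted p below 0.05 over 143 rows. For miR-16 and miR-15b red appears only in comparisons with 72 h, and for miR-497 only for AM21 averaged over both times.

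Across the 16 groups the order of the members differed. EtOH-fed animals at 72 h (15.64 ± 0.12, SD, n = 3) and CHO-fed animals at 72 h (15.25 ± 0.10) led for miR-16, and saline-treated and untreated CHO-fed animals at 0 h were lowest (13.89 ± 0.16 and 13.89 ± 0.38). Of the 15 steps between neighbouring groups in this order, only the first 2 exceeded the pooled within-group SD of 0.23, and only there did neighbours not overlap. For miR-15b the same pair of groups led (13.65 ± 0.15 and 13.26 ± 0.38) and AM21-treated CHO-fed animals at 0 h were lowest (11.73 ± 1.01), with 2 steps above the pooled SD of 0.40. For miR-497 untreated EtOH-fed animals at 6 h were highest (8.59 ± 0.38) and AM21-treated EtOH-fed animals at 0 h lowest (7.49 ± 0.43), and no step exceeded the pooled SD of 0.28. Over the 16 group means, miR-16 and miR-15b correlated at r = 0.60, miR-16 and miR-497 at -0.19 and miR-15b and miR-497 at 0.013. With group means removed, over 48 animals, the same pairs gave 0.12, -0.15 and 0.22. The closeness of miR-16 and miR-15b was thus one of group means, and these points share libraries and total counts.

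Among the other 140 rows, the patterns most like that of miR-16 over the 16 group means were those of miR-425 (Pearson r = 0.95), miR-185 (0.88) and miR-130a (0.84). miR-425 rose from 0 to 72 h by 1.08 ± 0.21 under CHO and 0.76 ± 0.21 under EtOH (limma adjusted p = 0.000888 and 0.00937). For miR-15b they were miR-28 (0.72), miR-25 (0.68) and miR-132 (0.61). For miR-497 they were miR-539 (0.65), miR-199a-5p (0.57) and miR-21 (0.53). By Spearman's rho miR-185 (0.91) came first for miR-16, with miR-425 at 0.80, and miR-25 (0.78) came first for miR-15b, while miR-21 gave 0.11 with miR-497. These likenesses are descriptions over 16 points that share libraries. None of the nearest rows was miR-195 or miR-322, which gave r = 0.41 and 0.53 with miR-16.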

How the data were processed

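The authors counted rat liver miRNAs with NanoString probes, scaled the counts by TMM factors and deposited log2 CPM of 143 rows after the voom transformation. How the 143 rows were chosen from the panel is not given in the sources used here. The depth was recovered from the values: every deposited log2 CPM value gave a whole count within 0.001, with 58168 to 267582 counts per animal, and intervals from counts cover counting error only. Groups came from the sample titles. limma 3.58.1 in R 4.3.3 fitted all rows with 1 mean per group, in 24 untreated animals for time and diet and in 36 animals of 0 and 24 h for AM21, and p-values were adjusted by Benjamini-Hochberg over 143 rows with a threshold of 0.05. What the set number in the titles marks is not given in the sources used here. Deviations from the group mean were correlated between untreated samples with the same set number. They gave 0.12, 0.30 and 0.28 in CHO-fed 24 against 0 h, and 0.20, 0.29 and -0.06 in EtOH-fed 24 against 0 h. EtOH-fed against CHO-fed gave 0.52, 0.79 and 0.65 at 0 h, and 0.26, 0.24 and -0.27 at 24 h. Samples with different set numbers were not correlated, so whether sets pair the samples was not tested. Alternatives were other scalings, a filter on rows under 50 counts, precision weights, blocks, a term for total count, and omission of animals. Named miRNAs were the 3 members, rows with their seed, the nearest 3 patterns of each, miR-21, cell type markers, and at most 4 called rows of each cell-cycle list per comparison. The members and lists were chosen with earlier results of these data known. The fit was also run on simulated counts. Those held no set differences and no link of level to total count, so that run does not bear on either.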

Additional observations from a re-analysis of the deposited data

How the results depend on the processing

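Of 768 values under alternative settings, 704 kept their direction and their side of the threshold, 22 lost a call, 10 gained one and 32 changed sign. None that changed sign had been called (0). The rise of miR-16 from 0 and from 6 to 72 h in both diets, and that of miR-15b under EtOH, stayed called in every setting and single-animal omission run. The cause of the changes was not tested. Scaling by total counts moved the median of all rows by up to -0.30 from 0 to 72 h under CHO, where the deposited scaling gives 0.00. Chosen after the data were seen were the omission of both saline-treated animals with low miR-21, the tests of diet by 24 h and the paired test of the differences between members.

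With the set number as a replicate block, the change of miR-16 from 0 to 24 h under CHO was 0.63 and called (limma adjusted p = 0.0474), also as a random block (0.63, limma adjusted p = 0.0467), and the fixed block changed no other call. Paired within set, 6 pairs, the difference between miR-16 and miR-497 grew by 0.26 to 0.81 from 0 to 24 h (mean 0.51, exact two-sided sign-flip permutation p = 0.03125, the smallest the 64 relabellings allow, adjusted p = 0.075), so that no call changed. The random block gave 0.79 for miR-15b from 0 to 72 h under CHO and 0.0614 for its F test there, both lost, and -0.57 for miR-497 from 6 to 72 h under EtOH, gained. With only the groups compared in the fit, those 3 were 0.79, 0.0838 and -0.57, and median-of-ratios size factors gave -0.63 for the last and 0.018 for miR-15b between diets at 6 h.

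Scaling by total counts gave, for miR-15b, 0.48 from 0 to 72 h and 0.119 for the F test under CHO, -0.16 from 0 to 24 h under CHO, -0.21 between diets at 0 h, -0.0019 for AM21 at 24 h and 0.11 for diet by 24 h. For miR-16 it gave 0.33 from 0 to 24 h under CHO with saline included, 0.22 between diets at 0 h over treatments and 0.015 for AM21 by time. For miR-497 it gave -0.17 at 6 h under CHO, -0.13 for 24 h and -0.27 when saline-treated animals were averaged in, -0.68 from 6 to 72 h under EtOH, -0.50 for AM21 at 0 h, -0.47 between diets at 0 h over treatments and 0.21 for diet by 24 h. Scaling to the 100 highest probes gave 0.0608 for the F test of miR-15b under CHO, -0.043 and 0.017 for it between diets at 0 and 6 h, 0.073 for miR-16 from 0 to 6 h under EtOH and 0.0010 for its AM21 by time term. It gave, for miR-497, -0.73 from 6 to 72 h and 0.0391 for the F test under EtOH, -0.051 under CHO at 24 h with saline included, -0.24 for AM21 over both times and 0.029 for diet by 24 h.

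Total count as a covariate gave 0.098 and 0.057 for miR-497 from 0 to 72 h under CHO and EtOH, 0.050 from 6 to 72 h under CHO, 0.065 for miR-15b between diets at 6 h, and, for miR-16, 0.0055 from 0 to 6 h under EtOH, 0.041 for AM21 by time, -0.091 for saline against untreated and 0.22 between diets at 0 h. Saline animals alone as controls gave 0.10 for AM21 by time of miR-16. Untreated animals alone gave, at 24 h, 0.63 for miR-16 under CHO, no longer called (limma adjusted p = 0.0585), and 0.10 and 0.18 for miR-15b under CHO and EtOH. Precision weights gave 0.014 for miR-497 at 24 h under EtOH with saline included and -0.30 for AM21 over both times. Without both low miR-21 animals these were 0.043 and -0.30, and diet by 24 h for miR-497 was 0.014.

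Within 1 diet the differences between members could not reach a p under 0.10. From 0 to 72 h they grew under CHO by 1.45 (miR-16 minus miR-497) and 0.87 (miR-15b minus miR-497) and under EtOH by 1.31 and 1.19, and from 6 to 72 h by 1.25 and 0.60 under CHO and 1.89 and 1.46 under EtOH. Those that changed sign were 0.20 for miR-16 minus miR-497 at 6 h and -0.029 for miR-15b minus miR-497 at 24 h under CHO, and -0.27 for the latter at 6 h under EtOH.

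Of 1296 values with 1 animal left out (without each replicate in turn), 1216 kept direction and call, and the results that did not are given by their lowest and highest value. For miR-16 these were 0.41 to 0.85 from 0 to 24 h under CHO, -0.26 to 0.084 from 0 to 6 h under EtOH, -0.12 to 0.00099 for AM21 by time and -0.034 to 0.076 for saline against untreated. For miR-15b under CHO they were -0.038 to 0.28 at 24 h, -0.096 to 0.11 with saline included, 0.66 to 1.00 at 72 h, 0.34 to 0.71 from 6 to 72 h and 0.00856 to 0.12 for the adjusted p of the F test. They were -0.29 to 0.018 at 24 h under EtOH with saline included, -0.10 to 0.23 and -0.15 to 0.13 between diets at 0 and 6 h, -0.034 to 0.12 for AM21 at 24 h, -0.0015 to 0.15 for saline and -0.28 to 0.036 for diet by 24 h. For miR-497 under CHO they were -0.25 to 0.34 at 6 h, -0.046 to 0.12 for the 24 h change with saline, -0.15 to 0.024 at 72 h and -0.43 to 0.16 from 6 to 72 h. Under EtOH they were -0.24 to 0.045 at 24 h, -0.091 to 0.051 with saline included, -0.23 to 0.058 at 72 h, -0.79 to -0.44 from 6 to 72 h and 0.0434 to 0.39 for the F test. Between diets at 0 h it was -0.24 to 0.047, for AM21 -0.48 to -0.26 at 0 h and -0.36 to -0.25 over both times, and for diet by 24 h -0.032 to 0.11 over all treatments and -0.13 to 0.039 without AM21. Between members, miR-15b minus miR-497 ran from -0.087 to 0.11 at 6 h, miR-16 minus miR-497 from 0.41 to 0.62 at 24 h and miR-16 minus miR-15b from 0.40 to 0.70 for 6 to 72 h.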
